A study of Mus musculus with 3 samples.

Results

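The miR-199 and miR-214 cluster was taken as 6 mature miRNAs, chosen by name: mmu-miR-199a-5p, mmu-miR-199b-5p, mmu-miR-199a-3p, mmu-miR-199b-3p, mmu-miR-214-5p and mmu-miR-214-3p, where mmu stands for mouse. All 6 were found among the 627 mature miRNA IDs of the deposited count table, and all 6 passed the minimum mean of 10 normalized counts that 587 IDs passed. The libraries came from ovaries of CD1 mice, taken from newborn pups and cultured to the age that the series title gives as postnatal day 3. The culture medium held 0, 10, or 100 μM di (2-ethylhexyl) phthalate (DEHP), which is used to soften plastics, with the vehicle DMSO alone at 0 μM. Ovaries of many pups went into each concentration and 1 small RNA library was made per concentration, so the comparisons are between 3 libraries and have no replicate check. No p-value was therefore computed, and the 95% intervals given below cover counting error only.

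The hairpin of a miRNA yields a 5p and a 3p strand, of which 1 or both can be loaded into Argonaute and act on target mRNAs, mainly through the seed near the 5′ end. Mir199a-2 and Mir214 are made from the non-coding RNA Dnm3os, which is transcribed from the strand opposite to Dnm3 and is known from mesenchyme and developing skeleton, where the factor Twist1 induces it. In the ovary, mesenchyme-derived cells form the stroma around the germ cell cysts and the first follicles. miR-214-3p is known to act on Ezh2 mRNA, and miR-199a-3p on Mtor mRNA.

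In GENCODE M21 on GRCm38, Mir199a-2 lies at chr1:162217814-162217923 and Mir214 at chr1:162223368-162223477, both on the plus strand and 5444 bases apart. Both hairpins lie in the exon of 2 long Dnm3os transcripts (gene at chr1:162217623-162225550), and on the opposite strand both lie in an intron of Dnm3. The other 2 miR-199 hairpins have the same arrangement with paralogs of Dnm3. Mir199a-1 (chr9:21496495-21496564, minus strand) lies opposite to an intron of Dnm2, and Mir199b (chr2:32318460-32318569, plus strand) lies opposite to an intron of Dnm1. The 6 miRNAs thus come from 3 loci, of which the chromosome 1 locus alone holds miR-214.

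**Figure D1:**
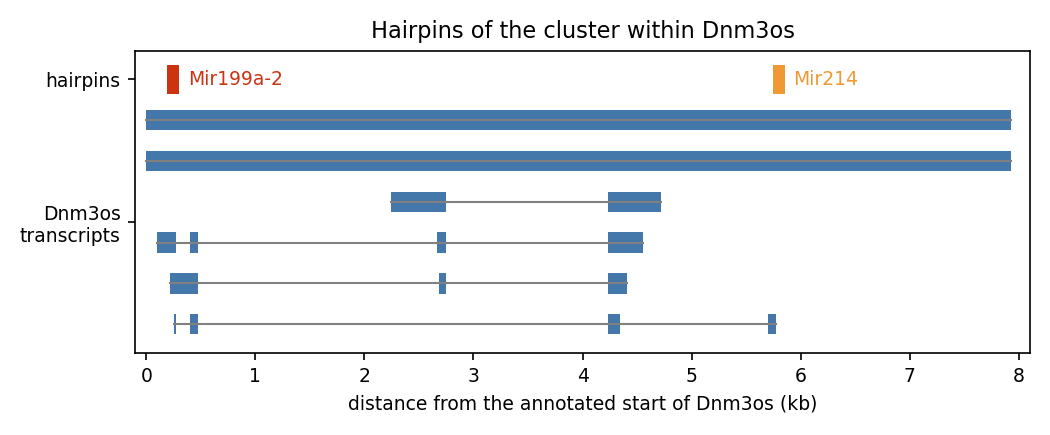
Map of the Dnm3os gene, with distance from its annotated start in kb on the horizontal axis. Blue boxes are exons of the annotated Dnm3os transcripts and grey lines their introns, and the coloured boxes are the hairpins: Mir199a-2 begins 191 bases and Mir214 5745 bases from the start, both inside the exon that fills the 2 longest transcripts.

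The mature sequences are shown because 2 of the 6 members cannot be told apart by sequencing. RefSeq (GRCm38.p6) had a mature sequence for 5 of the 6 members, the exception being miR-199b-5p. The seed, bases 2 to 8, is in capitals.
miR-199a-5p: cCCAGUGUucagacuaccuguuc
miR-199a-3p: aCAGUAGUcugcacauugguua
miR-199b-3p: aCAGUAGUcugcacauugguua
miR-214-5p: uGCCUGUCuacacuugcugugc
miR-214-3p: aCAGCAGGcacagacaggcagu
miR-199a-3p and miR-199b-3p are the same 22 bases, which are found in 3 hairpins, Mir199a-1, Mir199a-2 and Mir199b. miR-199a-5p is found whole in Mir199a-1 and Mir199a-2, and in Mir199b it matches 22 of 23 bases with the single substitution C10U, counted from 1 at the 5′ end of miR-199a-5p. Because this position is outside the seed, the stretch in Mir199b keeps the seed of miR-199a-5p. The 4 seeds differ from each other within the hairpin of miR-199a, within that of miR-214, and between them. In the RefSeq table the seed of miR-214-3p is also that of miR-761, which is not among the 627 IDs, and no other miRNA has the seed of a member. The G and C content goes from 40.9% in the miR-199 3p strand to 59.1% in miR-214-3p.

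The shared 3p sequence shows in the counts. The table holds 11 rows for the 6 members, with 3 rows for miR-199a-3p, 3 for miR-199b-3p, 2 for miR-199a-5p and 1 for each of the others. The row labels do not name the hairpin. The 3 rows of miR-199a-3p (154340, 153887 and 153886 counts at 0 μM) are equal to the 3 rows of miR-199b-3p in every library, so these 2 members are a single measurement given under both names, and the 6 members give 5 distinct measurements. The 2 rows of miR-199a-5p held 105993 and 105981 counts at 0 μM. The rows of an ID therefore hold nearly the same reads counted again, and of these the row with the largest sum over the libraries was taken. How reads with a mismatch were assigned between miR-199a-5p and miR-199b-5p is not given in the sources used here.

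The libraries held 5064602 to 5952274 counts over 1 row per ID, totals that include the shared 3p counts of miR-199 under both names. The 10 most abundant miRNAs held 45.4% of the counts at 0 μM, 45.6% at 10 μM and 70.5% at 100 μM. At 0 and 10 μM these 10 include the shared 3p strand under both names. The 100 μM library differed from the other 2 in the spread of its ratios too. The standard deviation of the log2 ratios to 0 μM was 0.56 at 10 μM and 1.60 at 100 μM over the 587 miRNAs. Counts were divided by median-of-ratios size factors (1.38, 1.35 and 0.546). miR-202-5p, a miRNA known for its high level in the gonads, had 41367, 53172 and 9799 counts at 0, 10, and 100 μM, so it was found in all 3 libraries.

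In the control ovary the 3p strand of miR-199 was the most abundant member. It had 111992 normalized counts at 0 μM (95% Poisson interval 111434 to 112553), which was 2.94% of the library and rank 9 of the 627 IDs. miR-199a-5p followed with 76911 normalized counts, or 2.02% of the library. miR-199b-5p had 13362, miR-214-3p 8067 and miR-214-5p 1601 normalized counts. The mature strands are 22 or 23 bases long, so these levels were compared without a division by length. The intervals of neighbours in this order did not overlap. With the 3p counts of miR-199 taken once, the members held 5.56% of the counts at 0 μM, 5.38% at 10 μM and 2.80% at 100 μM. The totals behind the shares in this paragraph still hold the 3p counts under both names, which makes the shares slightly too low. Summed as normalized counts the members were at 211933, 202191 and 304948, so at 100 μM the share of the library was lowest while the normalized sum was highest.

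The 3p strand of miR-199 had 154340 counts at 0 μM, 191783 at 10 μM and 67389 at 100 μM. On the scale of normalized counts these were 111992, 142278 and 123461. The level was highest at 10 μM, with a log2 ratio to 0 μM of 0.35 (95% Clopper-Pearson interval 0.34 to 0.35), and at 100 μM the log2 ratio was 0.14 (0.13 to 0.15). This small value at 100 μM goes below 0 with 2 of the other scalings, as given in the closing section.

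The 5p strand of miR-199a went the other way at 10 μM. miR-199a-5p had 105993, 61774 and 81922 counts, or 76911, 45828 and 150086 normalized counts at 0, 10, and 100 μM. It was lowest at 10 μM, with a log2 ratio to 0 μM of -0.75 (-0.76 to -0.73), and highest at 100 μM, with a log2 ratio of 0.96 (0.95 to 0.98). At 100 μM it passed the 3p strand and was at rank 13 of the 627 IDs, against rank 15 for the 3p strand. With total counts as the scaling, the ratios of both miR-199 5p strands at 100 μM to 0 μM were below 0, at -0.55 for miR-199a-5p and -0.60 for miR-199b-5p.

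miR-199b-5p followed the same order of libraries with a deeper low point. Its counts were 18414, 6246 and 13794, or 13362, 4634 and 25271 normalized counts. The log2 ratio to 0 μM was -1.53 (-1.57 to -1.49) at 10 μM and 0.92 (0.89 to 0.95) at 100 μM. At 10 μM it was 2.88-fold lower than at 0 μM, and 1.53% of the 587 miRNAs had a lower ratio. miR-199a-5p was 1.68-fold lower at 10 μM, and its counts were 5.76 times those of miR-199b-5p at 0 μM, 9.89 times at 10 μM and 5.94 times at 100 μM. The ratio between the 2 5p strands was thus nearly the same at 0 and 100 μM and higher at 10 μM.

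The 2 strands of miR-214 differed from those of miR-199. miR-214-3p had 11117, 11079 and 2964 counts, or 8067, 8219 and 5430.2 normalized counts. At 10 μM its log2 ratio to 0 μM was 0.03 and the interval held 0 (-0.01 to 0.07), and at 100 μM it was -0.57 (-0.63 to -0.51). miR-214-5p, the least abundant member, had 2207, 1660 and 382 counts, or 1601, 1231.5 and 699.8 normalized counts. Its log2 ratio was -0.38 (-0.47 to -0.29) at 10 μM and -1.19 (-1.35 to -1.04) at 100 μM, a 2.29-fold lower level. Both strands of miR-214 were lowest at 100 μM, where both 5p strands of miR-199 were highest except with total-count scaling.

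**Figure D2:**
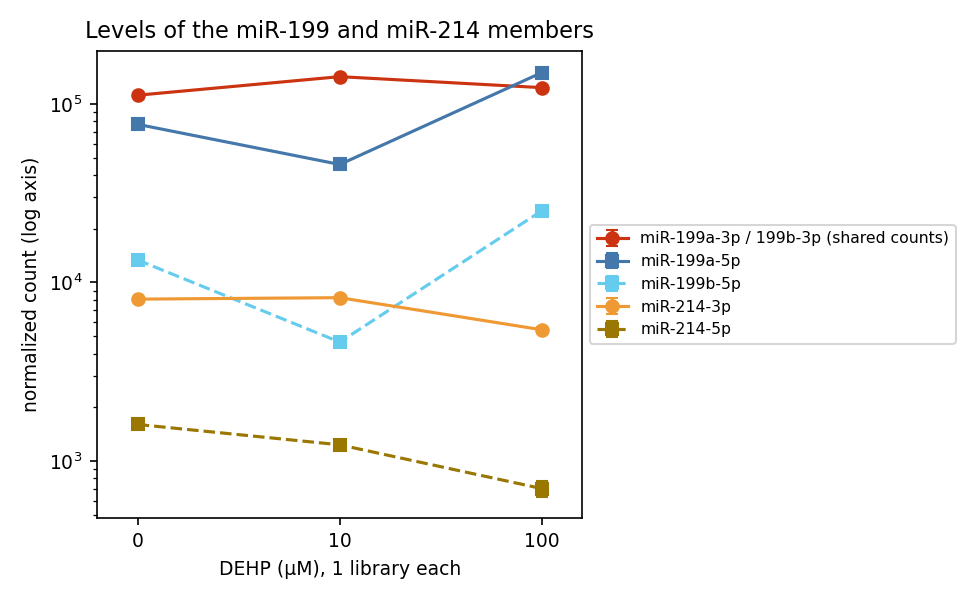
Normalized counts of the members on a log axis against the DEHP concentration, with 1 library at each concentration. Points are the libraries and bars the 95% Poisson intervals, most of which are smaller than the points. miR-199a-5p and miR-199b-5p have their low point at 10 μM and their high point at 100 μM, the shared 3p strand of miR-199 lies between 111992 and 142278, and both strands of miR-214 are lowest at 100 μM.

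A log2 ratio beyond 1 was used to count members as higher or lower. Between 10 and 0 μM, 1 of the 6 members was lower by this rule (miR-199b-5p) and 0 were higher, where 5.11% of the 587 miRNAs were lower and 1.53% higher. Between 100 and 0 μM, 1 member was lower (miR-214-5p) and 0 were higher, against 25.7% lower and 26.7% higher among all. With total counts as the scaling, 4 members were lower and 0 higher in this comparison, against 63.9% lower and 5.06% higher among all. These 4 were both strands of miR-214 and the shared 3p strand of miR-199, a single measurement counted under both its names. Between 100 and 10 μM, 2 members were higher (miR-199a-5p at 1.71 and miR-199b-5p at 2.45) and 0 were lower, against 29.5% higher and 24.7% lower among all. With total counts these 2 were at 0.17 and 0.91. By the same rule 0 members were then higher and 4 lower, against 6.07% higher and 62.6% lower among all. The 4 were the same names, with the shared 3p strand again counted under both. With the 3p counts of miR-199 taken once, the median log2 ratio of the members was -0.38 at 10 μM and 0.14 at 100 μM, and over all 587 miRNAs it was 0.02 and -0.01. The interquartile range of all log2 ratios there, -1.06 to 1.12, held 4 of the 5 distinct members. At 10 μM the range was -0.37 to 0.29, with both 5p strands of miR-199 well below it, miR-214-5p at its lower edge and the 3p strand of miR-199 just above it. With a bound of 2 in place of 1, the only member counted was miR-199b-5p between 100 and 10 μM, where 12.3% of all miRNAs were higher and 8.69% lower. The shares beyond 2 for 100 against 0 μM were 10.4% higher and 9.37% lower, and for 10 against 0 μM they were 0% and 0.681%. The comparisons of 100 μM with 0 and with 10 μM share the 100 μM library.

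**Figure D3:**
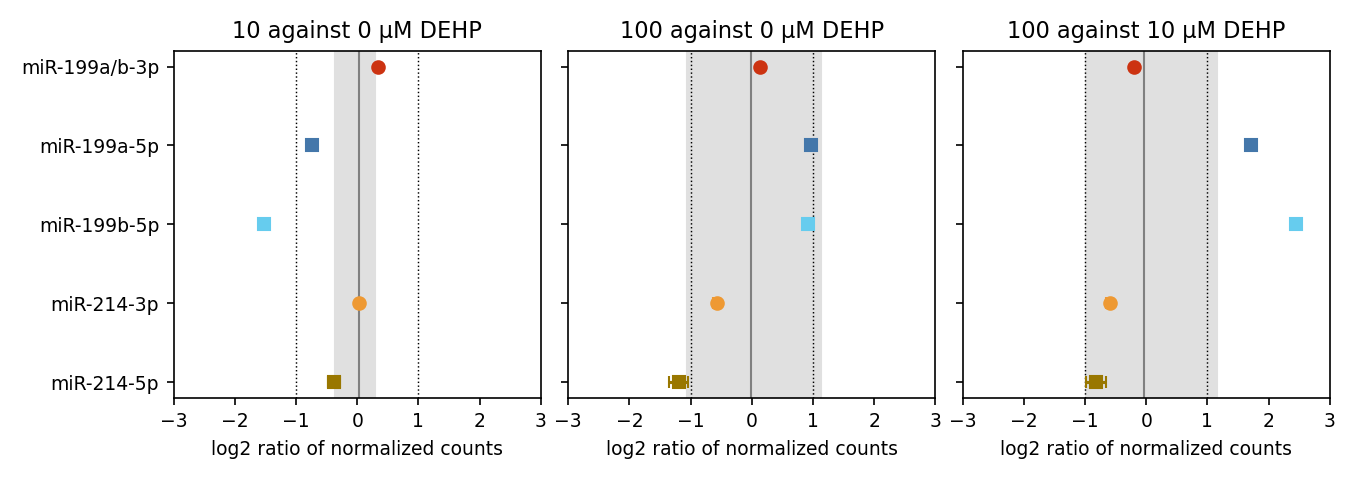
Log2 ratios of normalized counts of the members in the 3 comparisons, with 95% counting intervals as bars. The grey band is the interquartile range and the grey line the median of all 587 miRNAs, and dotted lines mark ratios of -1 and 1. At 10 μM both miR-199 5p strands lie well left of the band, at 100 against 0 μM the members other than miR-214-5p lie inside it, and at 100 against 10 μM the miR-199 5p strands lie right of it.

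The ratio of the 2 strands of a hairpin within a library does not depend on the scaling between libraries. For miR-199a the 5p strand held 40.7% of the counts of both strands at 0 μM, 24.4% at 10 μM and 54.9% at 100 μM. The Clopper-Pearson intervals of these shares were 40.5% to 40.9%, 24.2% to 24.5%, and 54.6% to 55.1%. The 3p strand was thus the more abundant strand at 0 and 10 μM, and the 5p strand at 100 μM, with the exception that the 3p strand was ahead at 100 μM too when all rows of an ID were summed. On the log2 scale the ratio of 5p over 3p was -0.54, -1.63 and 0.28. miR-199b, taken against the same 3p counts, had ratios of -3.07, -4.94 and -2.29. Since the 3p counts can come from any of 3 hairpins, both 5p strands were also set against the 3p counts taken once. This choice was made after the rows had been seen. The 5p strands then held 44.6%, 26.2% and 58.7% of the counts at 0, 10, and 100 μM.

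For miR-214 the 3p strand stayed the more abundant strand throughout. Its 5p strand held 16.6% of the counts at 0 μM, with an interval of 15.9% to 17.2%. The share was 13.0% (12.5% to 13.6%) at 10 μM and 11.4% (10.4% to 12.5%) at 100 μM. The log2 ratio of 5p over 3p was -2.33, -2.74 and -2.95. The intervals at 10 and 100 μM overlapped. Between 0 and 100 μM the strand ratio moved toward 3p by 0.62 in miR-214 and toward 5p by 0.82 in miR-199a.

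Strand ratios moved in many hairpins, and 174 hairpin names had both strands above the minimum mean. Between 10 and 0 μM, 10.3% of the 174 moved toward 3p by more than 1 on the log2 scale, among them miR-199a (-1.09) and miR-199b (-1.87), while 7.47% moved toward 5p and 17.8% moved either way. The shift of miR-199b was larger in size than that of 98.3% of the names, and the shift of miR-199a larger than that of 87.4%. Both names use the same 3p counts, whose sequence is found in 3 hairpins. With both 5p strands together over these 3p counts the shift was -1.18, larger in size than that of 89.7%. miR-214 shifted by -0.41, about the median size of 0.42. Between 100 and 0 μM, 65.5% of the 174 moved by more than 1 in either direction (26.4% toward 5p and 39.1% toward 3p), and the median size of the shift was 1.48. All 3 shifts of the cluster were under this median, at 0.82 for miR-199a, 0.78 for miR-199b and -0.62 for miR-214. Between 100 and 10 μM, where 28.7% moved toward 5p, 40.8% toward 3p and 69.5% either way, the shifts were 1.92 for miR-199a, 2.65 for miR-199b and -0.22 for miR-214. Among the 58 names with at least 100 counts for both strands in every library, miR-30e moved farthest toward 3p (-7.04) and miR-10b farthest toward 5p (4.87). At 0 and 100 μM, miR-30e-5p had 37713 and 1468 counts and miR-30e-3p had 3570 and 18304.

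**Figure D4:**
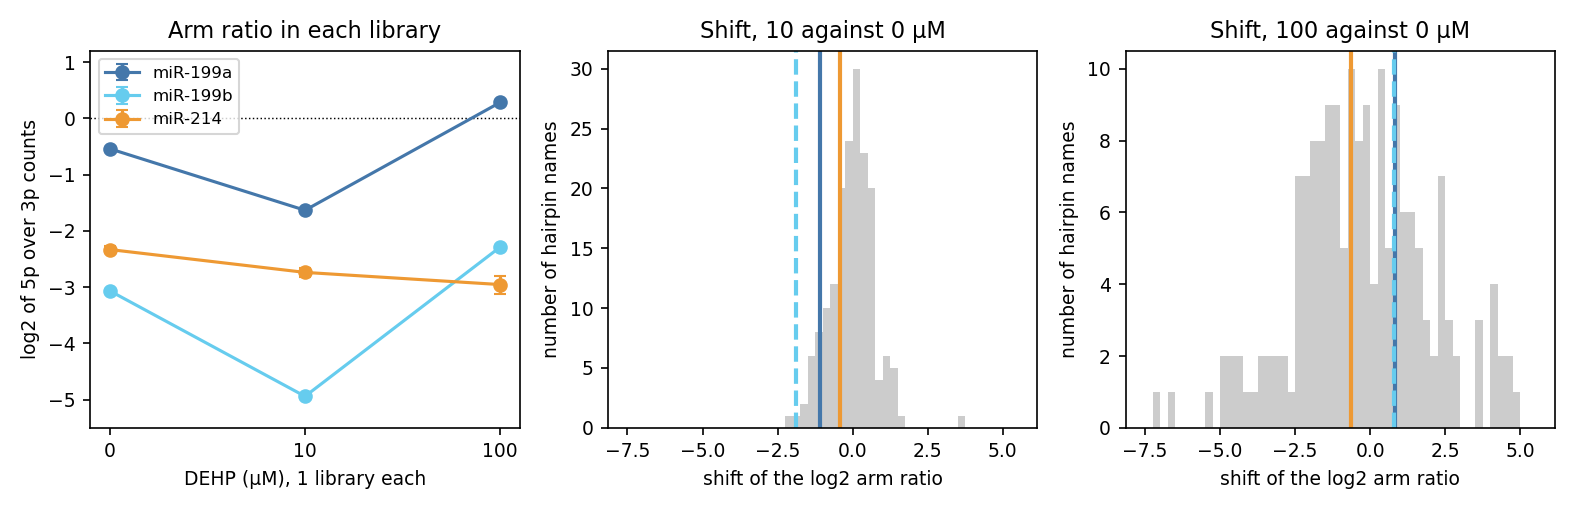
Left, log2 ratio of 5p over 3p counts for miR-199a, miR-199b and miR-214 in each library, with 95% Clopper-Pearson intervals and a dotted line at equal strands. Middle and right, the shift of this ratio at 10 and at 100 μM against 0 μM for 174 hairpin names (grey histogram), with the 3 names of the cluster as lines: at 10 μM miR-199b lies at -1.87 near the left edge, and at 100 μM the lines lie between -0.62 and 0.82, inside a wide histogram.

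The 2 hairpins of Dnm3os can be set against each other in the same way, with a limit. Reads of miR-199a-5p can also come from Mir199a-1, and those of the 3p strand from any of the 3 miR-199 hairpins. For the 5p strands, miR-199a-5p had 48.0 times the counts of miR-214-5p at 0 μM, 37.2 times at 10 μM and 214 times at 100 μM. For the 3p strands, miR-199 had 13.9 times the counts of miR-214-3p at 0 μM, 17.3 times at 10 μM and 22.7 times at 100 μM. At 100 μM both strands of miR-199a thus stood higher relative to miR-214, by 2.16 for 5p and 0.71 for 3p on the log2 scale. As a background, 153 pairs of strands from the same arm of neighbouring hairpins (same strand of the genome, less than 10 kb apart) were compared. Their median size of shift was 0.40 at 10 μM and 1.77 at 100 μM, and 68.6% of the pairs moved by more than 1 at 100 μM. Many of these pairs share a miRNA, so they are not independent. At 10 μM the cluster shifted by -0.37 for 5p and 0.32 for 3p, both under the median size.

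miRNAs known from stromal and other mesenchymal cells were taken as a list of 15, chosen with earlier results of these data known. All 15 were in the table. Between 10 and 0 μM, 0 of the 15 were beyond a log2 ratio of 1, where 1.53% of all miRNAs were higher and 5.11% lower. The values of the list went from -0.93 to 0.78 with a median of -0.12. Between 100 and 0 μM, 4 were higher and 5 lower, with a median of -0.51, where 26.7% of all miRNAs were higher and 25.7% lower. Ratios above and below 0 were thus found at 100 μM both in the list and among the 5 distinct members. With total counts this was not so for the members, which were all below 0 (-0.55 to -2.71), and 0 of the list were higher and 10 lower by more than 1, against 5.06% and 63.9% of all miRNAs. In bulk tissue fewer cells of a type and less RNA per cell cannot be told apart.

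Among the list, the strands of miR-143 and of miR-140 lay on opposite sides of 0. miR-143-3p, an abundant miRNA of smooth muscle and stroma, had 288159, 218413 and 432017 counts and a log2 ratio of 1.92 at 100 μM. miR-143-5p had 596, 574 and 28 counts and a log2 ratio of -3.06 (-3.68 to -2.53). miR-140-3p, known from cartilage, had a log2 ratio of 2.35 at 100 μM, and miR-140-5p, with 1495, 1300 and 76 counts, one of -2.96 (-3.31 to -2.63). The shifts of the strand ratio were -4.97 for miR-143 and -5.30 for miR-140, against 0.82 for miR-199a. miR-145a-5p, which is encoded beside miR-143, had 7377, 11215 and 1271 counts and a log2 ratio of -1.20 (-1.29 to -1.11) at 100 μM. The other strand, miR-145a-3p, had 1464, 1893 and 521 counts and a log2 ratio closer to 0, at -0.15 (-0.30 to -0.01). Of the strands with ratios under 1 at 100 μM, miR-21a-5p, which is abundant in many stromal cells, was at 0.12 (0.11 to 0.13), close to the 0.14 of the miR-199 3p strand.

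The remaining members of the list were strands of miR-100, miR-152, the miR-29 family, miR-22 and miR-125b. miR-100-5p (1.88) and miR-152-5p (1.83) were higher at 100 μM, and miR-152-3p was at 0.71. The miR-29 strands of the list, which act on collagen mRNAs, were at -1.57 for miR-29a-3p and -1.57 for miR-29b-3p, the latter from 91 and 12 counts. miR-29c-3p was at -0.99. The list holds only 3p strands of miR-29, so these values do not describe the 5p strands. The strand ratio of miR-29c moved toward 5p by 2.49 between 0 and 100 μM, with a lowest count of 12. miR-22-3p was at -0.92 and miR-125b-5p at -0.51. At 10 μM, miR-125b-5p had the highest ratio of the list (0.78) and miR-29c-3p the lowest (-0.93, from 61 and 31 counts).

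**Figure D5:**
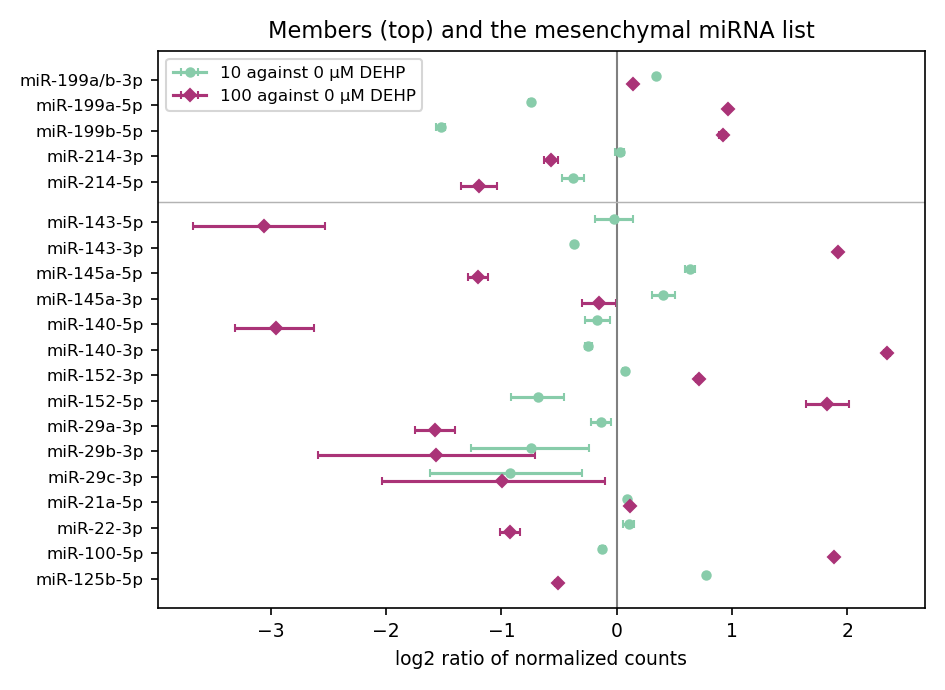
Log2 ratios to 0 μM of the members (above the line) and of the 15 miRNAs of the mesenchymal list (below it), for 10 μM (circles) and 100 μM (diamonds), with 95% counting intervals as bars. At 10 μM the list lies between -0.93 and 0.78, and at 100 μM it reaches from -3.06 for miR-143-5p to 2.35 for miR-140-3p, while the members reach from -1.19 to 0.96.

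Outside the cluster, the miRNAs with the most similar pattern were found by the distance between log2 levels over the 3 libraries, each centred on its mean, among 368 miRNAs with a mean of at least 100 normalized counts. Nearest to the 3p strand of miR-199 were miR-299a-5p (distance 0.03), miR-299b-5p and miR-365-3p. Their counts were 583, 706 and 250 for miR-299a-5p and 549, 677 and 245 for miR-365-3p. miR-299b-5p, with 583, 706 and 249 counts, is nearly the same measurement as miR-299a-5p. Nearest to miR-214-3p were miR-130a-3p (distance 0.02, with 1127, 1123 and 295 counts), miR-376c-3p and miR-30b-5p. For miR-199a-5p the nearest were miR-300-3p (distance 0.17, with 5326, 3507 and 3948 counts), miR-101c and miR-101a-3p. These were also lowest at 10 μM and highest at 100 μM in normalized counts. miR-300-3p had log2 ratios to 0 μM of -0.57 and 0.90. With 3 libraries these distances describe the libraries only.

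Markers of other cell types gave values beside which the cluster can be read, on the scale of the median-of-ratios size factors. Total counts move every log2 ratio between 100 and 0 μM by -1.52. A rise smaller than that, in a marker or in a sum, would become a fall. The sums were not recomputed with other scalings. The 2 strands of miR-126a, a miRNA of endothelium, summed to 46170 normalized counts at 0 μM, 52252 at 10 μM and 9855 at 100 μM. The 2 strands of miR-202 summed to 31188, 40382 and 19964, with log2 ratios of -0.74 for 5p and 0.78 for 3p at 100 μM. The 5 epithelial miRNAs of the miR-200 family, all of them 3p strands, summed to 6759, 7090.04 and 6172. At 100 μM they went different ways. The log2 ratios to 0 μM were 1.13 for miR-200c-3p, 0.67 for miR-200b-3p, 0.09 for miR-429-3p and -1.37 for miR-200a-3p. miR-141-3p had 157 counts at 0 μM and 1 at 100 μM. The 5p strands were not in the list. Between 0 and 100 μM the strand ratio moved toward 5p by 4.58 for miR-200a and by 0.57 for miR-200b. The list for germ cells and the early embryo took only 3p strands of the miR-290 cluster. The 5 of 6 found in the table summed to 2593, 1869.5 and 5494. Their log2 ratios at 100 μM to 0 μM were 2.70 for miR-294-3p, 1.16 for miR-292a-3p, 0.97 for miR-295-3p, 0.93 for miR-291a-3p and -0.17 for miR-293-3p. The 5p strands of miR-291a, miR-292a and miR-293 were not in the list. Between 0 and 100 μM the strand ratio moved toward 5p by 1.77 for miR-292a. For miR-291a and miR-293 the shifts were -1.02 and -1.27, toward 3p. The red blood cell list summed to 948, 1009 and 835, of which miR-486a-5p made 817, 875 and 733. The muscle list summed to 284, 214 and 480.0. In the muscle list miR-1a-3p was at 0.84 and miR-206-3p, from 26 and 4 counts, at -1.31 at 100 μM. None of these markers found in the table was at 0 in any library, but some had few counts. At 0, 10, and 100 μM, miR-144-3p of the red blood cell list had 16, 3 and 2 counts. miR-133a-3p of the muscle list had 11, 9 and 6. The part of these cell types in the values of the cluster was not tested.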

How the data were processed

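Small RNA of ovaries cultured with 0, 10, or 100 μM DEHP was sequenced, with 1 library per concentration. The authors trimmed the reads, compared them with the mouse genome by bowtie2 and quantified them with miRDeep2, and they deposited whole-number counts per mature miRNA, not normalized. The submitters' processing notes name the build mm10 and DESeq2. Versions and the miRBase release are not given in the sources used here. Columns were matched to concentrations by the sample titles.

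The table has 961 rows for 627 mature IDs. An ID with several rows was represented by its largest row. Size factors came from DESeq2 1.42.0 (R 4.3.3). Factors of TMM and of the upper quartile were computed with edgeR 4.0.16. A pseudocount of 0.5 was added to the normalized counts for log2 ratios, which were computed for IDs with a mean of at least 10. The 95% intervals are exact: Clopper-Pearson for ratios and shares, Poisson for levels. As PCR copies were not told apart by molecular identifiers, they cover counting error only. The lowest count among the members was 382. No test was made, because there is 1 library per concentration. The scripts were tested on simulated Poisson counts with the size factors taken as known. That is a check of the code and does not bear on the choice of scaling or on variation between replicates.

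The members, the lists and the rules for named miRNAs were chosen with earlier results of these data known. Named were the members, the mesenchymal list, miRNAs with a member's seed, the 3 nearest by pattern, miR-202, and the hairpins with the largest shift of the strand ratio. Alternatives were other scalings, 1 normalized count added, other minimum counts, a threshold of 2, and summed rows. Mature sequences and neighbouring hairpins came from RefSeq (GRCm38.p6), with 529 of the 627 IDs matched by name, and gene positions from GENCODE M21 on GRCm38, the build that mm10 denotes.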

Additional observations from a re-analysis of the deposited data

How the results depend on the processing

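No paired analysis was possible because each concentration has a single library, which also means that no replicate can be left out. Strands of the same hairpin could not be taken from matching rows, since the row labels do not name the hairpin, and that alternative was not run. Against the size factors, total counts moved all log2 ratios between 100 and 0 μM by -1.52, library sizes without the 10 most abundant miRNAs by -0.76 and TMM by 0.08. With total counts, 4 members were beyond 1 for 100 against 0 μM and 4 for 100 against 10 μM, where 69% and 68.6% of all miRNAs were. All 4 were lower in both comparisons, so the 2 members counted as higher for 100 against 10 μM no longer were. The 4 were both strands of miR-214 and the shared 3p strand of miR-199 under both its names. Among all miRNAs, 63.9% and 62.6% were lower. Without the 10 most abundant miRNAs 2 and 5 members were beyond 1, against 54.1% and 60.8% of all. For 100 against 0 μM these were 2 lower and 0 higher, against 40.8% lower and 13.2% higher among all. For 100 against 10 μM they were 4 lower and 1 higher, against 46.4% lower and 14.4% higher. The 4 again held the shared 3p strand under both names. With TMM 2 were beyond 1 for 100 against 0 μM, as miR-199a-5p was at 1.04, against 52.7% of all. At a threshold of 2, 0 members were beyond it for 10 against 0 μM, 0 for 100 against 0 μM and 1 for 100 against 10 μM. The ratios between 100 and 0 μM changed sign with total counts for miR-199a-5p (-0.55), miR-199b-5p (-0.60) and the 3p strand of miR-199, listed as miR-199a-3p and miR-199b-3p (-1.38), and for the 3p strand also without the 10 most abundant miRNAs (-0.62). The list of 15 had 0 higher and 10 lower at 100 μM with total counts, where 5.06% of all miRNAs were higher and 63.9% lower. No ratio of a member between 10 and 0 μM changed sign under the alternatives run, which included size factors from these 2 libraries alone, added after the data were seen. With rows summed, which counts shared reads again, the log2 ratio of 5p over 3p at 0, 10, and 100 μM was -1.12, -2.22 and -0.30 for miR-199a and -4.65, -6.52 and -3.87 for miR-199b, so that the 3p strand of miR-199a was the more abundant one at 100 μM too. With both 5p strands summed over the 3p counts it was -0.31, -1.50 and 0.51. The log2 ratio of miR-199 over miR-214 with rows summed was 6.59, 6.22 and 8.74 for the 5p strands and 5.38, 5.69 and 6.09 for the 3p strands. Using the row with the lowest total or 1 count added left the strand ratios of miR-199a, miR-199b and miR-214 and the ratios of miR-199 over miR-214 within their counting intervals. The ratio of the 2 miR-199 5p strands was not recomputed. The depth limits miR-214-5p most, with 382 counts at 100 μM.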
